A study of Mus musculus with 8 samples.

Results

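The resident Kupffer cell genes are a set of 10 transcripts by which the long-lived macrophages of the liver are recognised: Clec4f, Cd163, Vsig4, Timd4, Cd5l, Marco, Fabp7, Folr2, Adgre1 and Id3. The choice was by name, as known markers of the cell type, but it was made with earlier results of these data known. The genes were found on the arrays through the accession of each probe. All 10 genes were represented, by 11 probes, and all 10 passed the filter on dim probes, out of 15862 genes that did so. Adgre1 was the gene with more than 1 probe.

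Kupffer cells line the sinusoids of the liver, where they take up bacteria, aged red cells and apoptotic cells from the blood. They are seeded before birth and renew themselves, and their identity depends on signals from neighbouring endothelial cells, stellate cells and hepatocytes, among them Csf1 or Il34, BMP ligands and Notch ligands. When resident cells are lost or the liver is injured, monocytes enter, and the macrophages that arise from them at first lack most of the resident markers.

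Whole livers of 8 mice were measured, 1 array per mouse, in 4 groups of 2. The AKP mice, males (KPM1 and KPM2) and females (KPF1 and KPF2), carried in the liver alone an oncogene in activated form together with p53 mutated at R172H, and the AKP::Keap1 mice, males (KPKM1 and KPKM2) and females (KPKF1 and KPKF2), lacked Keap1 in addition. Both alleles were therefore shared by all 8 mice, and no liver without them was among the samples. The promoter or Cre that restricts the alleles to the liver and the ages of the mice are not given in the sources used here. Nothing more is said of the mice of a group, so the p-values measure the spread between these samples. In whole tissue, fewer Kupffer cells and less RNA per Kupffer cell cannot be told apart.

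Each array held 44397 spots, of which 65.7% to 70.7% were well above background, and none was saturated. The 2 mice of a group correlated at 0.990 to 0.992. Keap1, whose product targets the transcription factor Nrf2 for degradation, was lower in the AKP::Keap1 livers by a log2 difference of -2.85 ± 0.11 (SE, limma adjusted p = 0.000178), in the direction of the labels. Nfe2l2, which encodes Nrf2, measured -0.41 ± 0.10 (adjusted p = 0.023), a call that was lost under 8 of 18 alternatives. All 8 hepatocyte markers examined were well above background on all 8 arrays. Each group was hybridised on a slide of its own, and the males were scanned on one day and the females on another, so slide and group, and scan day and sex, cannot be told apart.

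The promoters of 5 members are shown because the levels of the first 3 genes were correlated across the 8 livers and the last 2 changed between the genotypes. Each is the 250 bases before the gene start, 5′ to 3′ on the gene's strand, from RefSeq (GRCm38.p6). Capitals mark matches, on either strand, to GAGGAA, the core bound by the macrophage regulator PU.1, to TGACNNNGC, the core of the antioxidant response element bound by Nrf2, or to TGGGAA, the core bound by the Notch effector RBPJ.
Clec4f: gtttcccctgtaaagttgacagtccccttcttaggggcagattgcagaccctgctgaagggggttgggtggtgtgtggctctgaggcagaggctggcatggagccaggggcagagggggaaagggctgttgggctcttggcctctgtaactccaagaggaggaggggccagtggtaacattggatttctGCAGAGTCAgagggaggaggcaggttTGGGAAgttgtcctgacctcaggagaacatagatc
Vsig4: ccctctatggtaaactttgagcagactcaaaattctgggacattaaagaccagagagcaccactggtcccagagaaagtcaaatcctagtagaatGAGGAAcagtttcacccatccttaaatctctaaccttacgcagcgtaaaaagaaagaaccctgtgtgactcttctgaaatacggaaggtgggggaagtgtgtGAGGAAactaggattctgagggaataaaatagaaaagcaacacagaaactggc
Cd5l: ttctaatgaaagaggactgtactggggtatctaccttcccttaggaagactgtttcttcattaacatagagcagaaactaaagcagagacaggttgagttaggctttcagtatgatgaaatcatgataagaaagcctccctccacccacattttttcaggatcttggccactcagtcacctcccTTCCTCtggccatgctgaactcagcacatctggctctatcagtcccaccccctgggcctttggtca
Fabp7: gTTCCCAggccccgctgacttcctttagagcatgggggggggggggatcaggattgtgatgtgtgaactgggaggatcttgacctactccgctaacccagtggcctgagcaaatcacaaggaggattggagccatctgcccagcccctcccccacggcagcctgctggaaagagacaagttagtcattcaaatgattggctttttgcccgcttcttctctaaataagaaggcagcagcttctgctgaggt
Cd163: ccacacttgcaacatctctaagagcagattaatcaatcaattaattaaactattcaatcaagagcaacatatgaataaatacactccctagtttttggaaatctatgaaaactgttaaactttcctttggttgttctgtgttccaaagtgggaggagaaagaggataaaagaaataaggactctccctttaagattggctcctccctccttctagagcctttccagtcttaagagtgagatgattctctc
The Clec4f window lies at chr6:83656117-83656366 (minus strand) and the Vsig4 window at chrX:96293439-96293688 (minus strand). The Cd5l window lies at chr3:87357631-87357880 (plus strand), that of Fabp7 at chr10:57784673-57784922 (plus strand) and that of Cd163 at chr6:124304401-124304650 (plus strand). No 2 matches overlapped in these windows. The Clec4f window held 1 TGACNNNGC match, 61 to 53 bases before the start, and 1 TGGGAA match, 35 to 30 bases before it. In the Vsig4 window GAGGAA matched at 155 to 150 and at 53 to 48 bases before the start, and in that of Cd5l at 66 to 61 bases. The Fabp7 window held a single match, to TGGGAA at 249 to 244 bases, and the Cd163 window held none of the 3 motifs. RefSeq windows were found for 9 of the 10 members, with 2 for Folr2, and not for Adgre1. GAGGAA was in 4 of these 10 windows (Cd5l, Id3, Marco and Vsig4) and in 23.3% of the 32851 windows of all genes. TGACNNNGC was in 2 (Clec4f and Folr2) against 10.2% of all windows, and TGGGAA in 3 (Clec4f, Fabp7 and Marco) against 21.6%. A match is a string of letters and does not show that a factor binds there.

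The main comparison was that of AKP::Keap1 with AKP livers, averaged over the sexes, and it asks what loss of Keap1 adds to the shared oncogene and mutant p53. Of the 10 Kupffer cell genes, 2 were lower in AKP::Keap1 livers at an adjusted p below 0.05, Cd163 and Fabp7, and none was higher. With limma, 2 of 10 also had an unadjusted p below 0.05. Across all genes, 39.2% were called in this comparison, 21.8% as higher and 17.3% as lower. The members' count of 2 called as lower was thus near that of all genes. The median log2 difference of the members was -0.07, against -0.003 for all genes tested. The other 8 members had differences between -0.80 and 0.14. Levels below are log2 of the processed signal minus the array's 75th percentile, so that 0 stands for a spot at that percentile, and they are compared between livers for 1 probe, never between genes.

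**Figure D1:**
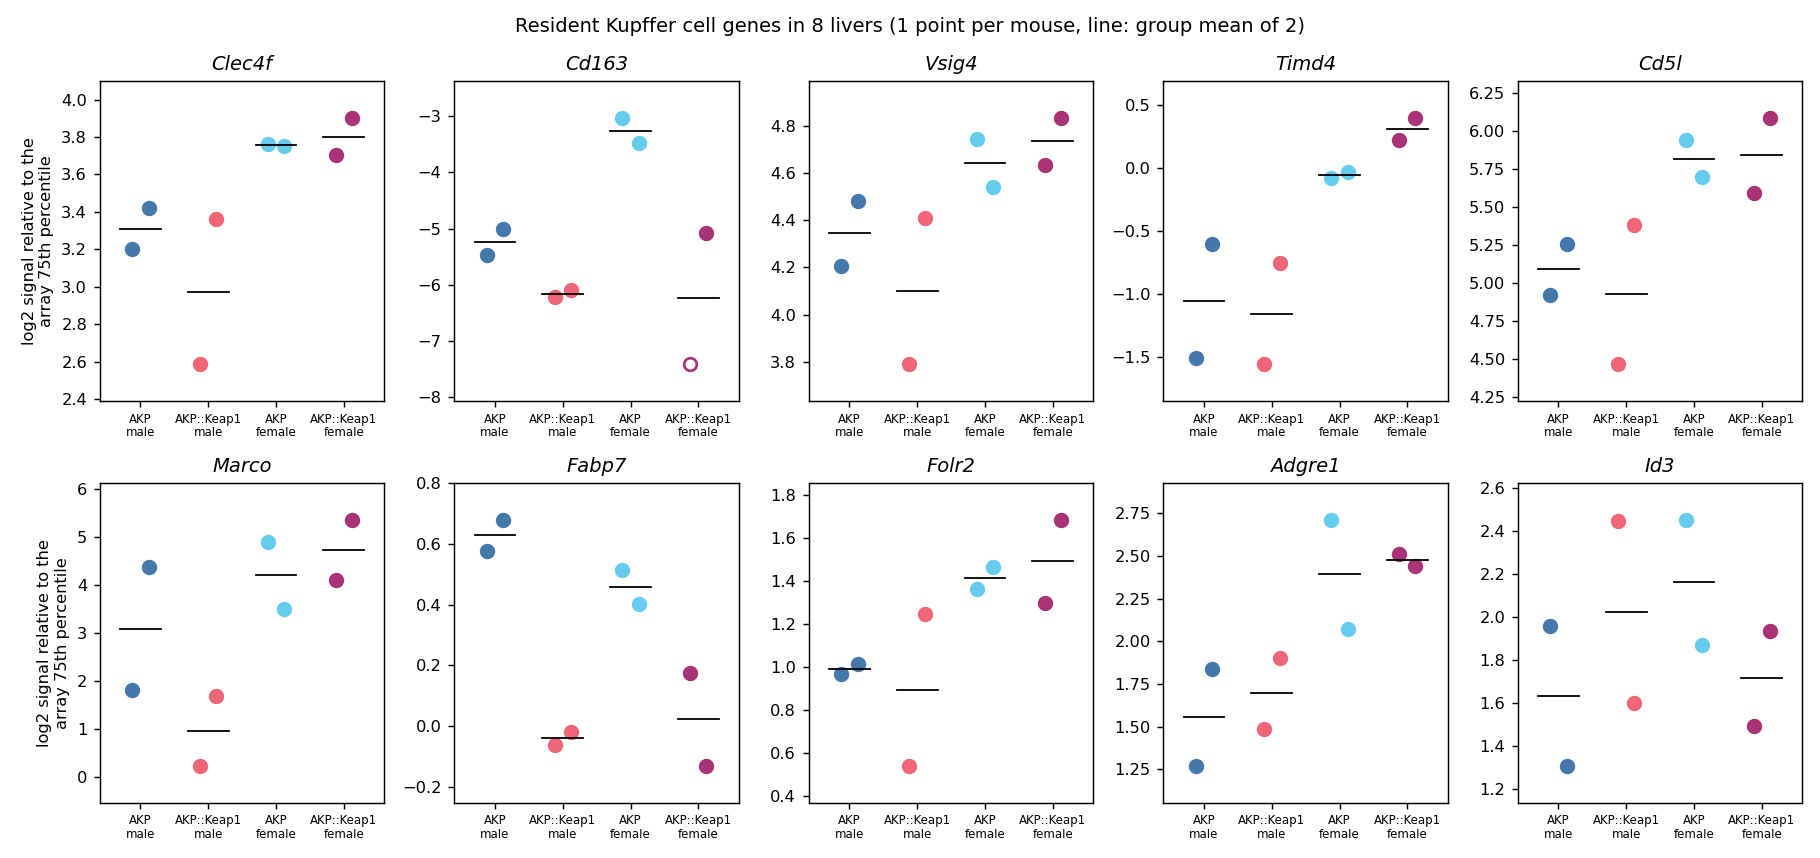
Log2 level of each of the 10 genes (vertical axis, relative to the array's 75th percentile, own scale per gene) in the 4 groups (horizontal axis), with 1 point per mouse, a line at the mean of 2 mice, and an open point where the probe was not well above background. Fabp7 is lower in all 4 AKP::Keap1 livers than in all 4 AKP livers, and Timd4 is higher in all 4 females than in all 4 males.

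Clec4f is a C-type lectin that binds galactose-bearing glycans and is restricted to Kupffer cells in the mouse. Its log2 levels were 3.20 and 3.42 in the AKP males, 2.59 and 3.36 in the AKP::Keap1 males, 3.77 and 3.75 in the AKP females, and 3.70 and 3.90 in the AKP::Keap1 females. The genotypes overlapped in both sexes, and the lowest of the 8 livers was KPKM1. The difference over both sexes was -0.15 ± 0.18 (95% interval -0.59 to 0.29, adjusted p = 0.55).

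Vsig4, the complement receptor by which Kupffer cells catch opsonised bacteria, stood at 4.21 and 4.48 in the AKP males, 3.79 and 4.41 in the AKP::Keap1 males, 4.74 and 4.54 in the AKP females, and 4.64 and 4.83 in the AKP::Keap1 females. The genotypes overlapped here too, with a difference of -0.08 ± 0.16 (95% interval -0.47 to 0.32, adjusted p = 0.73). Timd4 is a receptor for phosphatidylserine on apoptotic cells, and its presence is used to tell resident from recently arrived macrophages. It measured -1.51 and -0.61 in the AKP males, -1.56 and -0.76 in the AKP::Keap1 males, -0.08 and -0.04 in the AKP females, and 0.22 and 0.40 in the AKP::Keap1 females. The male genotypes overlapped, while both AKP::Keap1 females lay above both AKP females. Over both sexes the Timd4 difference was 0.14 ± 0.26 (95% interval -0.48 to 0.75, adjusted p = 0.70).

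Adgre1 encodes F4/80, the adhesion receptor used to stain mouse tissue macrophages in general. Its brighter probe measured 1.27 and 1.84 in the AKP males, 1.49 and 1.90 in the AKP::Keap1 males, 2.71 and 2.07 in the AKP females, and 2.51 and 2.44 in the AKP::Keap1 females. The genotypes overlapped in each sex. The difference was 0.11 ± 0.20 (95% interval -0.38 to 0.61, adjusted p = 0.69) for this probe and -0.20 ± 0.21 (adjusted p = 0.47) for the other, so the 2 probes differed in sign and neither was called.

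Marco and Cd163 are scavenger receptors. Marco, which binds bacteria and modified lipoproteins, varied widely between mice of a group: 1.80 and 4.38 in the AKP males, 0.23 and 1.69 in the AKP::Keap1 males, 4.91 and 3.50 in the AKP females, and 4.11 and 5.36 in the AKP::Keap1 females. Both AKP::Keap1 males lay below both AKP males, and the female genotypes overlapped. The difference over both sexes, -0.80 ± 0.71, had a 95% interval from -2.51 to 0.92 (adjusted p = 0.40), and so included a 2-fold fall, which is a log2 difference of -1. Without 1 mouse it ranged from -1.44 (without KPM1) to -0.15 (without KPM2).

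Cd163 takes up complexes of haemoglobin and haptoglobin. Its probe was dim, with processed signals of 23.5 and 37.7 in the AKP males, 22.3 and 22.9 in the AKP::Keap1 males, 144.7 and 101.3 in the AKP females, and 6.6 and 40.8 in the AKP::Keap1 females. On the log2 scale these were -5.47 and -5.01, -6.22 and -6.10, -3.03 and -3.48, and -7.41 and -5.08, in the same order. The AKP females stood apart as the highest, and KPKF1, with the lowest value, was the single array on which the probe was not well above background. Both AKP::Keap1 livers lay below both AKP livers in each sex, which was the case for Cd163 and Fabp7 among the members and for 17.5% of all genes as lower. Cd163 was 3.87-fold lower over both sexes, a log2 difference of -1.95 ± 0.49 (95% interval -3.14 to -0.76, adjusted p = 0.024).

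The Cd163 call depended on single mice. It was lost without any 1 of KPM1, KPM2, KPKM1, KPKM2, KPF1 or KPF2, with differences from -1.84 to -2.07. The difference was -1.37 without KPKF1 and -2.54 without KPKF2. Either of these fits leaves 1 AKP::Keap1 female and takes the gap between KPKF1 and KPKF2 out of the shared spread. The SE fell from 0.49 to 0.18 by that step, so the kept call there adds no support. The call was also lost with the slide as a random block (adjusted p = 0.082) and on unscaled signals (-1.64, adjusted p = 0.0502). Normexp background correction brought the difference to -1.08 (adjusted p = 0.00079). Its offset of 50 lies above the Cd163 processed signals of all livers but the AKP females, and draws such dim values together. The SE was 0.13 in that fit, so its smaller p adds no support. Every one of these fits gave a lower level in AKP::Keap1 livers, with sizes from -1.08 to -2.54.

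Cd5l is a secreted protein of the scavenger receptor family that protects macrophages from apoptosis. It measured 4.92 and 5.26 in the AKP males, 4.46 and 5.38 in the AKP::Keap1 males, 5.94 and 5.69 in the AKP females, and 5.59 and 6.09 in the AKP::Keap1 females. The genotypes overlapped in both sexes, and the difference was -0.07 ± 0.24 (95% interval -0.65 to 0.50, adjusted p = 0.83).

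Fabp7 and Folr2 bind small molecules. Fabp7, a fatty acid binding protein otherwise known from the brain, measured 0.58 and 0.68 in the AKP males, -0.06 and -0.02 in the AKP::Keap1 males, 0.51 and 0.40 in the AKP females, and 0.18 and -0.13 in the AKP::Keap1 females. The 4 AKP::Keap1 livers lay between -0.13 and 0.18, all below the 4 AKP livers at 0.40 to 0.68. Fabp7 was 1.47-fold lower, a log2 difference of -0.55 ± 0.10 (95% interval -0.79 to -0.31, adjusted p = 0.0082). The call was kept without each mouse in turn (adjusted p 0.00875 to 0.031) and with the slide as a random block (adjusted p = 0.030).

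On unscaled signals the Fabp7 call was lost, with a difference of -0.24 (adjusted p = 0.15). Its processed signals were 1552 and 1943 in the AKP males, 1586 and 1554 in the AKP::Keap1 males, 1689 and 1497 in the AKP females, and 1271 and 1259 in the AKP::Keap1 females. The male signals thus overlapped before scaling, and the females did not. The 75th percentile by which the arrays were scaled was 1041 and 1214 in the AKP males but 1656 and 1573 in the AKP::Keap1 males. It was 1184 and 1133 in the AKP females and 1125 and 1378 in the AKP::Keap1 females. The part of this brightness in the Fabp7 result was not tested beyond that comparison.

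Folr2, the folate receptor beta of macrophages, measured 0.97 and 1.01 in the AKP males, 0.54 and 1.25 in the AKP::Keap1 males, 1.36 and 1.46 in the AKP females, and 1.30 and 1.68 in the AKP::Keap1 females. Genotypes overlapped in each sex, and the difference was -0.01 ± 0.18 (95% interval -0.44 to 0.42, adjusted p = 0.97). Id3 is the transcriptional regulator of the set, an inhibitor of helix-loop-helix factors that Kupffer cells need and that BMP signals induce in many cells. It measured 1.96 and 1.31 in the AKP males, 2.45 and 1.60 in the AKP::Keap1 males, 2.45 and 1.87 in the AKP females, and 1.49 and 1.94 in the AKP::Keap1 females. The groups overlapped throughout, with a difference of -0.03 ± 0.27 (95% interval -0.68 to 0.63, adjusted p = 0.94).

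Within the males, 1 member was called, Fabp7, at -0.67 ± 0.14 (1.59-fold lower, adjusted p = 0.021), where 29.1% of all genes were called. That call was lost without any 1 of the 4 males, and on unscaled signals. Marco had the largest male difference of the members, -2.13 ± 1.0, which did not pass (adjusted p = 0.15). It was -3.42 without KPM1, -0.84 without KPM2, -1.41 without KPKM1 and -2.86 without KPKM2, and passed in none of these fits. Both AKP::Keap1 males lay below both AKP males for Fabp7, Marco and Cd163, a pattern shown by 39.3% of all genes. Cd163 measured -0.92 ± 0.69 in males (adjusted p = 0.34), and -0.40 on unscaled signals (adjusted p = 0.70). It was called with normexp (-0.86, adjusted p = 0.013) and with the 4 male arrays alone (adjusted p = 0.043). The latter fit holds no female array, so the gap between KPKF1 and KPKF2 is not in its spread.

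Within the females, 1 member was called, Cd163, at -2.98 ± 0.69 (7.91-fold lower, adjusted p = 0.031), where 21.4% of all genes were called. The Cd163 call in females was lost without any 1 of the males or of the AKP females, on unscaled signals and with a fit of the 4 female arrays alone (adjusted p = 0.094). Its size rested on the 2 AKP::Keap1 females, of which KPKF1 was not well above background. The difference was -1.82 without KPKF1, -4.15 without KPKF2 and -1.29 with normexp (adjusted p = 0.0038). The normexp offset of 50 draws dim values together, and the SE with it was 0.19. Leaving out KPKF1 or KPKF2 takes the gap between them out of the shared spread, and the SE fell from 0.69 to 0.28. Fabp7 in females, at -0.43 ± 0.14, did not pass (adjusted p = 0.075). Both AKP::Keap1 females lay below both AKP females for Cd163 and Fabp7, and above them for Timd4. These patterns were found in 28.0% and 37.2% of all genes.

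A different genotype effect in the sexes was not shown for any member. The genotype by sex interaction called 0 of 10 members with limma, and 0 of 10 had an unadjusted p below 0.05, where 1.90% of all genes were called. The largest interaction terms, female minus male difference, were 2.67 ± 1.42 for Marco (adjusted p = 0.31), -2.07 ± 0.98 for Cd163 (adjusted p = 0.26) and -0.84 ± 0.54 for Id3 (adjusted p = 0.40). That of Fabp7 was 0.23 ± 0.20 (adjusted p = 0.52). Without 1 mouse the term of Marco ranged from 1.38 (without KPM2) to 3.96 (without KPM1), that of Cd163 from -3.23 (without KPKF2) to -0.90 (without KPKF1), and that of Id3 from -1.26 (without KPKM2) to -0.41 (without KPKM1).

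**Figure D2:**
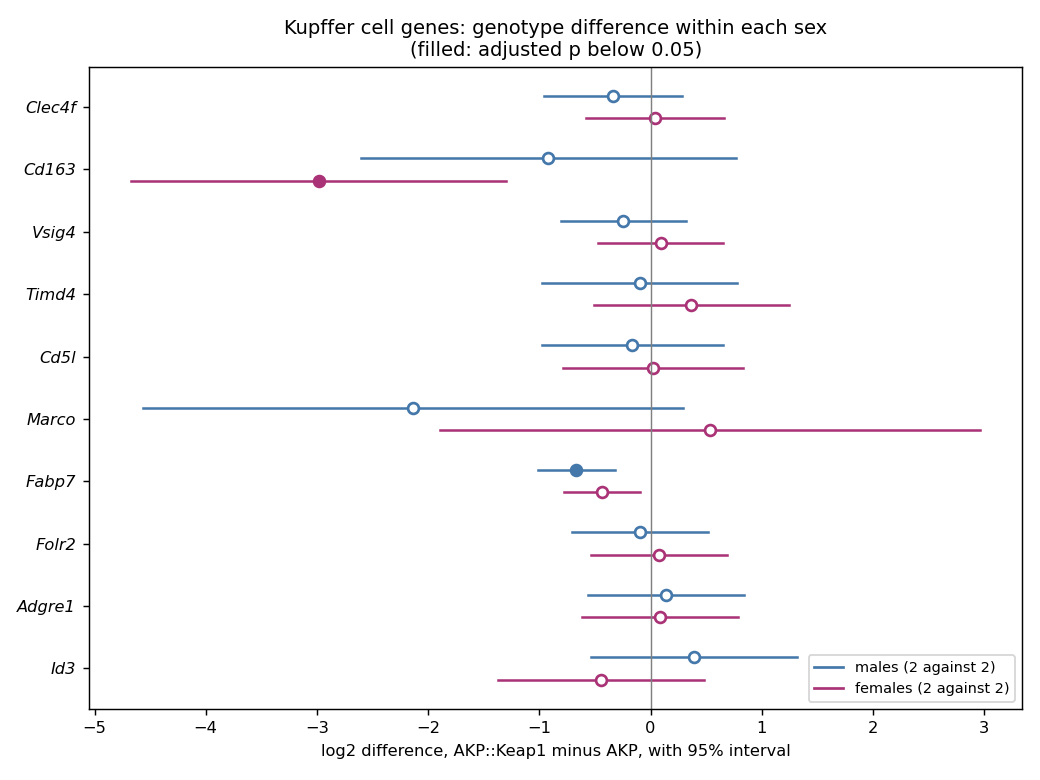
Log2 difference AKP::Keap1 minus AKP (horizontal axis) for each gene (vertical axis), with 95% intervals, males in blue and females in purple, 2 mice against 2. Filled points pass an adjusted p of 0.05, which Fabp7 does in males at -0.67 and Cd163 does in females at -2.98, and the intervals of Marco are the widest.

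A second contrast of the design is sex, which cannot be told apart from scan day. On the scaled levels, female livers stood above male livers for most Kupffer cell genes in both genotypes. In AKP mice both females lay above both males for 7 of 10 members, Clec4f, Cd163, Vsig4, Timd4, Cd5l, Folr2 and Adgre1, as did 29.7% of all genes. In AKP::Keap1 mice the same was true of 7 of 10, with Marco in place of Cd163, against 27.9% of all genes. For 6 members, Clec4f, Vsig4, Timd4, Cd5l, Folr2 and Adgre1, it held in both genotypes, which 12.6% of all genes did. Fabp7 lay lower in both AKP females than in both AKP males, as did 36.7% of all genes. Before scaling, the processed signals of AKP::Keap1 males and females overlapped for Clec4f, Vsig4, Cd5l and Folr2. For Vsig4 they were 33403 in KPKM2 and 27972 in KPKF1, and the AKP males and females overlapped too. The unscaled signals of Timd4 and Adgre1 stayed apart in both genotypes.

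Neither genotype alone gave a called member where the brightest probe stood for its gene. The second Adgre1 probe was called as higher in females in AKP mice (1.29 ± 0.30, limma adjusted p = 0.031). In AKP::Keap1 mice that probe did not pass (0.98 ± 0.30, adjusted p = 0.14). With limma, 0 of 10 were called in AKP mice, where 20.0% of all genes were called and 3 of 10 members had an unadjusted p below 0.05. In AKP::Keap1 mice 0 of 10 were called, 4.02% of all genes were called, and 6 of 10 members had an unadjusted p below 0.05. The largest difference there was that of Marco, 3.78 ± 1.0 (95% interval 1.35 to 6.20, adjusted p = 0.099), from levels of 0.23 and 1.69 in the males to 4.11 and 5.36 in the females. The Cd163 difference was 1.98 ± 0.69 in AKP mice (adjusted p = 0.089) and -0.08 ± 0.69 in AKP::Keap1 mice (adjusted p = 0.96). In AKP mice it was called without KPKF1 or without KPKF2 (adjusted p = 0.015 in both), which leaves the value as it is and lowers the shared spread.

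**Figure D3:**
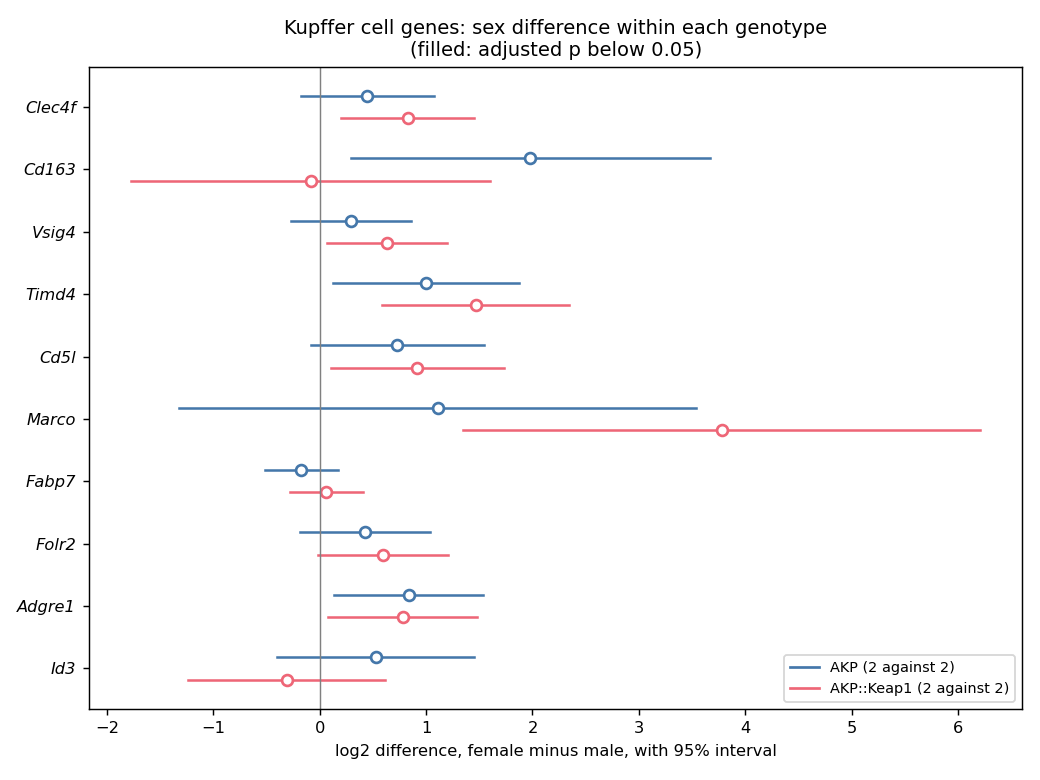
Log2 difference female minus male (horizontal axis) for each gene (vertical axis), with 95% intervals, AKP in blue and AKP::Keap1 in red, 2 mice against 2. No point is filled, since none passes an adjusted p of 0.05, and the largest is Marco in AKP::Keap1 mice at 3.78.

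The mean sex difference over both genotypes was computed after these values had been seen. It called 2 members as higher in females, Timd4 at 1.23 ± 0.26 (2.35-fold, adjusted p = 0.024) and Adgre1 at 0.81 ± 0.20 (1.75-fold, adjusted p = 0.039), where 9.92% of all genes were called as higher. The 2 members called stood beside 5 with an adjusted p between 0.052 and 0.088, namely Clec4f at 0.64, Cd5l at 0.82, Marco at 2.44, Folr2 at 0.51 and Vsig4 at 0.47. Cd163, at 0.95, had an adjusted p of 0.20. Without KPKF1, on which it was not well above background, it measured 1.53, and without KPKF2 it measured 0.36. Either of these fits takes the gap between KPKF1 and KPKF2 out of the shared spread. Marco measured 3.09 without KPM2. It was called with normexp (adjusted p = 0.025), the filter on all 8 arrays (adjusted p = 0.041) and the trended robust variance (adjusted p = 0.036). Clec4f and Cd5l were called with these settings, with quantile normalization and with the replicate block. Folr2 and Vsig4 were called with none of these. Id3 at 0.11 and Fabp7 at -0.05 were the members nearest to 0. The median of the members was 0.72, against -0.03 for all genes. The second Adgre1 probe gave 1.13 ± 0.21 (adjusted p = 0.018).

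No member was called for sex once the slide was a random block, with adjusted p = 0.090 for Timd4 and 0.12 for Adgre1. The Timd4 call was kept without KPM2 or KPKM2 and lost without each of the other 6 mice (adjusted p 0.052 to 0.070). The Adgre1 call was kept without KPM2 or KPF2 and lost without each of the other 6 (adjusted p 0.074 to 0.10), and it was lost with the replicate block (adjusted p = 0.063), on unscaled signals (adjusted p = 0.094) and without a filter (adjusted p = 0.052). Without 1 mouse the number of members called ranged from 0 to 4.

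The same 2 livers stood at the ends of the range for most members. KPKM1 had the lowest of the 8 values for 6 members, Clec4f, Vsig4, Timd4, Cd5l, Marco and Folr2, and KPKF2 had the highest for the same 6. The median gap between the 2 mice of a group, over the 10 members, was 0.40 in AKP males, 0.74 in AKP::Keap1 males, 0.22 in AKP females and 0.35 in AKP::Keap1 females. Over all genes it was 0.19, 0.16, 0.20 and 0.21. The largest member gaps were in Marco, 2.58 in AKP males, 1.45 in AKP::Keap1 males and 1.41 in AKP females, and in Cd163 in AKP::Keap1 females, 2.33. The members thus spread more between like mice than the median gene did in 3 of the 4 groups, most of all in the AKP::Keap1 males. In the AKP females the 2 medians were close, at 0.22 and 0.20.

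Across the 8 livers, the level of Clec4f ran with that of several other members. The 5 genes of all 15862 with the highest Pearson correlation with Clec4f were Vsig4 (r = 0.980), Cd5l (r = 0.968), Smc1b (r = 0.967), Cd300ld (r = 0.963) and Dok2 (r = 0.961). Folr2 followed at rank 8 (r = 0.955), Timd4 at rank 22 (r = 0.916), Marco at rank 28 (r = 0.895) and Adgre1 at rank 192 (r = 0.800). The correlation was 0.401 for Cd163, 0.143 for Fabp7 and -0.291 for Id3. These 8 arrays share their group means and their scaling, so the values describe the arrays. Cd163 was most like Rmdn3 (r = 0.976), Rtn2 (r = 0.969), Hsdl1 (r = 0.967), Acer3 (r = 0.959) and Kat6b (r = 0.957), and no other member reached more than r = 0.473 with it.

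Of 12 further genes enriched in Kupffer cells, 0 rose with genotype and 3 fell: Cd207, or langerin, by a log2 difference of -0.68 ± 0.15 (adjusted p = 0.015), C6 of the terminal complement pathway by -0.60 ± 0.18 (adjusted p = 0.045) and Nr1h3, which encodes the nuclear receptor LXR alpha, by -0.30 ± 0.09 (adjusted p = 0.045). Most of each of these differences lay in the males. The male and female differences were -1.27 and -0.09 for Cd207, -1.05 and -0.14 for C6, and -0.63 and 0.03 for Nr1h3. All 3 were called in males and none in females (adjusted p 0.73 to 0.91), while their interactions did not pass (adjusted p = 0.095, 0.20 and 0.11). The Nr1h3 mean turned positive on unscaled signals. Of 8 hepatocyte genes, 5 also fell in males and 0 rose (median -0.63). Which cells made the Cd207, C6 and Nr1h3 transcripts was not tested. The median of the 12 was -0.02, and Spic, the regulator of iron-handling macrophages, measured 0.13 (adjusted p = 0.83). Of all genes, 21.8% were called as higher and 17.3% as lower for genotype, and the lists that follow share this background.

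Genes of the signals and factors that keep macrophages in the liver moved in both directions, 4 of 20 up and 3 down, with a median of 0.12. Among ligands, the Notch ligand Jag1 rose by 1.16 ± 0.24 (adjusted p = 0.013) and Il34, a ligand of the receptor Csf1r, by 0.77 ± 0.19 (adjusted p = 0.021). Dll4 and Csf1 also rose, and Csf1r itself measured 0.26 (adjusted p = 0.29). Gdf2, the ligand BMP9, fell by a log2 difference of -0.42 ± 0.08 (adjusted p = 0.0099), and the nuclear receptor Rxra by -0.50 ± 0.10 (adjusted p = 0.011). Maf was the other gene that fell. Gdf2 fell in males (-0.71, adjusted p = 0.011) and measured -0.14 in females (adjusted p = 0.42), with an interaction that did not pass (adjusted p = 0.11). Jag1 rose in males (1.61, adjusted p = 0.021) and measured 0.71 in females (adjusted p = 0.18), and Il34 rose in females (1.08, adjusted p = 0.036) and measured 0.47 in males (adjusted p = 0.22), again without a called interaction (adjusted p = 0.32 and 0.38). Of 8 further target genes of BMP signals, which also induce Id3, 0 rose and 1 fell, Smad9 at -1.42 ± 0.34 (adjusted p = 0.019), with a median of 0.01.

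Other receptors for clearance were likewise mixed, with 2 of 15 up, 3 down and a median of -0.09. Cd36, a receptor for oxidised lipids that other liver cells also make, rose by 0.87 ± 0.10 (adjusted p = 0.0023), and the Fc receptor Fcgr1 by 0.65 ± 0.20 (adjusted p = 0.046). The Fc receptor Fcgr3 at -0.49 ± 0.12 (adjusted p = 0.025) and Timd2, a relative of Timd4, at -0.65 ± 0.17 (adjusted p = 0.029) fell, as did Lrp1. Of 19 genes from the families of the members, 7 rose and 2 fell, with a median of 0.36. Havcr2, which encodes the Timd4 relative Tim-3, rose by 2.04 ± 0.18 (adjusted p = 0.0013), and Cd5, a T cell relative of Cd5l, by 0.56 ± 0.11 (adjusted p = 0.010). Fabp2 fell by a log2 difference of -0.72 ± 0.17 (adjusted p = 0.021), and Clec4g, the endothelial relative of Clec4f, by -0.50 ± 0.09 (adjusted p = 0.0088).

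Of 10 measured markers of recruited macrophages, 8 rose in AKP::Keap1 livers and 0 fell, with a median of 1.32. Across all genes, 21.8% were called as higher and 17.3% as lower, with a median of -0.003. The resident members had 0 of 10 that rose and a median of -0.07. Cd9, a tetraspanin of scar-associated macrophages, rose by 1.08 ± 0.09 (adjusted p = 0.001), and Cx3cr1, the fractalkine receptor of monocytes, by 3.44 ± 0.35 (adjusted p = 0.0016). Cx3cr1 measured -3.21 and -3.36 in the AKP males, 0.15 and 0.42 in the AKP::Keap1 males, -3.53 and -4.06 in the AKP females, and -1.28 and 0.30 in the AKP::Keap1 females, with no overlap of the genotypes. The number that rose was 5 without KPF2 and 5 with the slide as a random block. Of 13 genes of macrophages in general, 5 rose and 1 fell, with a median of 0.41: Cd14, the co-receptor for endotoxin, rose by 1.72 ± 0.26 (adjusted p = 0.0045) and the signalling chain Fcer1g by 0.80 ± 0.15 (adjusted p = 0.0086), and the receptor kinase Mertk fell by a log2 difference of -0.52 ± 0.12 (adjusted p = 0.017).

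**Figure D4:**
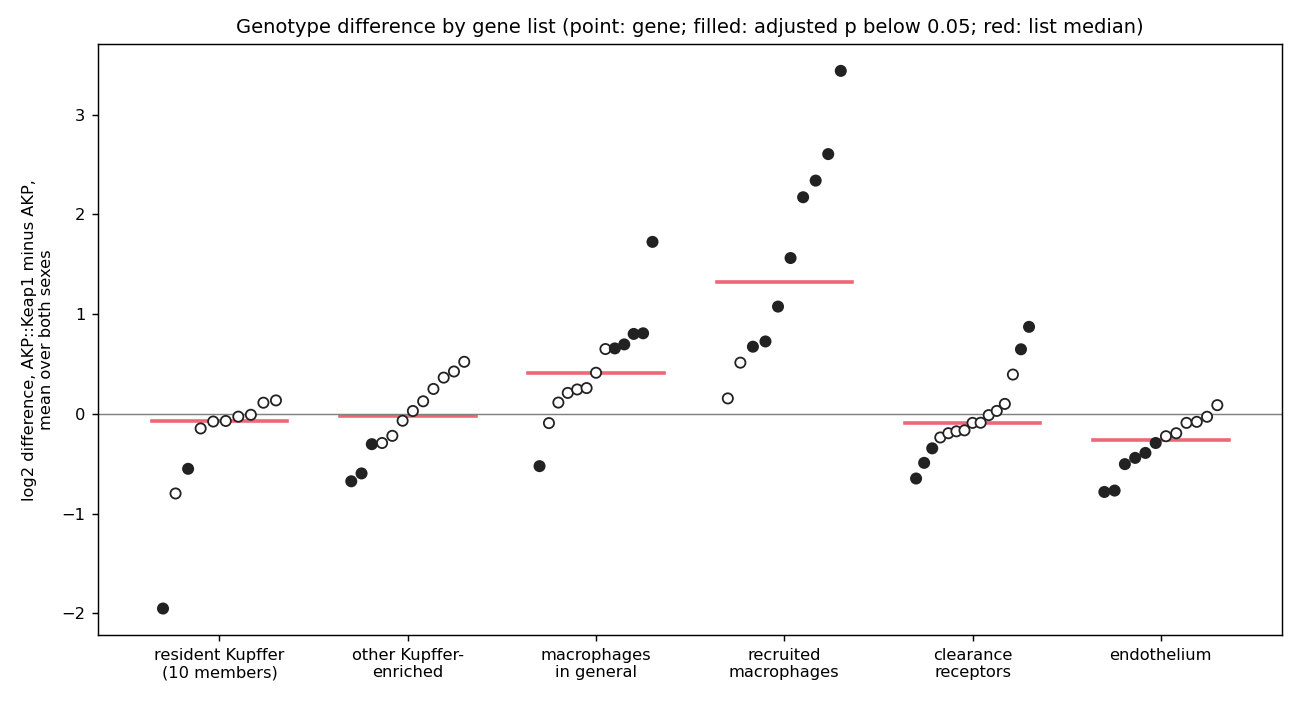
Log2 difference AKP::Keap1 minus AKP, mean over both sexes (vertical axis), for every measured gene of 6 lists (horizontal axis), with filled points for genes that pass an adjusted p of 0.05 and a red line at the list's median. The resident members lie around a median of -0.07 and the recruited macrophage genes around 1.32.

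The scaled linear signal was also summed over each list, so that bright probes weighed most. Over the members the sum ran from 71.5 to 102.6 in AKP males, 54.1 to 87.2 in AKP::Keap1 males, 112.8 to 148.9 in AKP females and 116.7 to 167.3 in AKP::Keap1 females, so that the genotypes overlapped in each sex and the females lay above the males. Over the recruited macrophage genes it ran from 12.1 to 13.4, 20.2 to 28.0, 11.2 to 13.1 and 21.1 to 24.9 in the same order, so that the genotypes did not overlap. Over the genes of macrophages in general it was 61.3 to 81.1 and 76.1 to 105.0 in the males, and 80.3 to 88.4 and 102.6 to 134.3 in the females. All members but Cd163 were well above background on all 8 arrays. In the recruited macrophage list the brightest probes were those of Cd9, Lgals3 and Plac8, which made most of its sum. Their scaled linear signals were 3.89, 3.46 and 3.24 in KPM1, and 6.62, 4.07 and 3.89 in KPKM1. Which cells made these transcripts was not tested.

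Markers of the other liver cells moved with genotype beside the Kupffer cell genes, where 21.8% of all genes were called as higher and 17.3% as lower. All 5 bile duct genes rose (median 3.28), as did 5 of 9 neutrophil genes (median 2.19) and 4 of 9 lymphocyte and dendritic cell genes (median 0.73). Of 8 hepatocyte genes 4 fell (median -0.40), and of 12 endothelial genes 6 fell (median -0.26), among them Clec4g and Pecam1, the latter at -0.44 ± 0.09 (adjusted p = 0.013), from -0.09 in males and -0.79 in females (interaction adjusted p = 0.10). Of 6 stellate cell and fibroblast genes 2 rose and 2 fell (median -0.24). The endothelial sum was 50.7 to 51.3 in AKP males and 39.9 to 41.6 in AKP::Keap1 males, and 49.8 to 52.9 and 45.5 to 47.7 in the females, without overlap. The part of these shifts in the values of Cd163 and Fabp7 was not tested.

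By sex, averaged over the genotypes, 3 of 12 further Kupffer cell genes were higher in females and 1 lower (median 0.35). Of 13 genes of macrophages in general 4 were higher and 0 lower (median 0.41), where 9.92% of all genes were called as higher. Recruited macrophage genes had 0 of 10 higher and 1 lower (median 0.06), with 0 of 9 neutrophil genes called. Of 12 endothelial genes 2 were higher (median 0.21), and of 8 hepatocyte genes 0 were called (median -0.19). Spi1, which encodes PU.1, was higher in females by 1.11 ± 0.23 (adjusted p = 0.024) and the receptor kinase Axl by 1.0 ± 0.16 (adjusted p = 0.013), both named after their values were seen. C6, like Axl one of the 12 further Kupffer cell genes, ran the other way. Its mean log2 level for males was 3.09 (AKP) and 2.03 (AKP::Keap1), against -0.51 (AKP) and -0.65 (AKP::Keap1) for females. It too was named here after its values were seen. The Spi1 probe was dim, with processed signals from 13.9 (KPM1) to 37.9 (KPKM2) in males and 37.2 (KPF2) to 63.3 (KPKF2) in females. The part of cell numbers in the sex difference of the members was not tested.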

How the data were processed

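Total RNA of 8 whole livers, 500 ng each, was labelled with Cy3 and hybridised to 1-colour Agilent arrays, per the labels' protocols. The deposited scanner files hold intensity values per spot, after the software's background subtraction, from Agilent Feature Extraction 10.7.3.1 per the file headers and 10.1 per the submitters' processing notes. The deposited series matrix holds the same intensity values, equal in 344160 of 344160 compared, with no scaling between arrays.

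The 1377 control spots and spots marked as outliers were left out, and spots of 1 probe were averaged. Through accessions without versions, in a RefSeq table of GRCm38.p6, 26055 of 39429 probes were named to 19751 symbols, and 13374 stayed unnamed. The processed signal was taken to log2, and the 75th percentile of the array was subtracted. A probe had to be well above background on 2 or more of the 8 arrays, and the brightest stood for its gene, which left 15862 genes with a value in each group.

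Differences were fitted over all genes with limma 3.58.1 in R 4.3.3, with 1 mean per group, and called at a two-sided Benjamini-Hochberg adjusted p below 0.05. Errors are standard errors of that fit. Adjusted p-values of single Adgre1 probes come from a fit in which each kept probe was its own row. Array number limits the precision. Tested on simulated data of 15824 genes with 200 changed, the genotype comparison over both sexes recovered 65.2% of 2-fold and 87.6% of 4-fold changes. The figures were 40% and 76.4% for the male comparison and 40% and 75% for the female one. The simulation changed far fewer genes than the 6211 called here for genotype over both sexes. The Benjamini-Hochberg adjustment depends on that number, so these rates do not give the recovery in the real comparisons.

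The members and the gene lists were chosen with earlier results of these data known. All 10 members are described. Of every other list, up to 2 genes that rose and 2 that fell with the smallest adjusted p for genotype are named, or 1 where none was called, and further genes where they explain a count. For Clec4f and Cd163 the 5 genes with the highest Pearson correlation are named. Alternatives were quantile normalization, the array median, unscaled series matrix values, normexp (offset 50), 2 other filters, the mean of probes, a trended robust variance, the replicate number or the slide as a block, only the 4 arrays compared, and leaving out each mouse. The files hold no mean signal, so normexp used the median signal. The activating allele of the oncogene is not reported here.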

Additional observations from a re-analysis of the deposited data

How the results depend on the processing

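Precision was limited by 2 mice per group and by the shared slide of each group. Cd163 was near background, so its size is uncertain, and Marco had wide intervals. The number of members called for genotype over both sexes was 2. It was 0 on unscaled series matrix values and 1 with probes above background on all 8 arrays, where Cd163 was not tested, and 1 with the slide block (duplicateCorrelation). In males the count of 1 became 0 on unscaled values, 2 with normexp and 2 with the 4 arrays alone. In females the count of 1 became 2 with the array median, 0 on unscaled values, 0 with the filter on all 8 arrays and 0 with the 4 arrays alone. For sex in AKP the count of 0 became 2 with normexp and 1 with the 4 arrays alone, and in AKP::Keap1 it became 2 with normexp. For sex over both genotypes the count of 2 became 4 with quantile normalization, 1 on unscaled values, 6 with normexp, 1 without a filter, 5 with the filter on all 8 arrays, 5 with the trended robust variance, 3 with the replicate block and 0 with the slide block. Without 1 mouse the counts ranged from 1 to 2 for genotype over both sexes, 0 to 2 in males, 0 to 1 in females, 0 to 1 for sex in AKP and 0 to 4 for sex over both genotypes. With the slide as a random block the recruited macrophage genes that rose numbered 5 in place of 8, and without 1 mouse 5 to 8.

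The replicate numbers did not pair the samples: deviations of same-numbered mice correlated between -0.16 and 0.12 over the pairs of groups. With the replicate block, 2 members were called for genotype over both sexes, Cd163 (adjusted p = 0.028) and Fabp7 (adjusted p = 0.016). The slide block used a consensus correlation of 0.235. Each slide held 1 group, so that fit had a genotype and a sex term but no interaction, unlike the main fit. Slide and interaction cannot be told apart in it. The median of all genes for genotype was -0.003, and it was -0.25 with the array median, 0.31 on unscaled values and -0.12 with normexp, so that differences near 0 turned with the scaling. For sex over both genotypes it was -0.03, and -0.12 with the array median and -0.20 on unscaled values. With the mean of all kept probes the sign turned for genotype in females in Adgre1 (-0.14) and for genotype over both sexes in Adgre1 (-0.0461). With normexp the sign turned for the interaction in Cd5l (-0.0409), for genotype in females in Cd5l (-0.000172), for genotype in males in Cd5l (0.0407), for genotype over both sexes in Cd5l (0.0203) and for sex in AKP::Keap1 in Cd163 (0.28). With quantile normalization the sign turned for the interaction in Cd5l (-0.27) and Vsig4 (-0.0321), for genotype in females in Cd5l (-0.0815) and Clec4f (-0.0250), for genotype in males in Cd5l (0.19), Folr2 (0.0157) and Vsig4 (0.0359), for genotype over both sexes in Cd5l (0.0557), Folr2 (0.0408), Id3 (0.0329) and Vsig4 (0.0199) and for sex in AKP::Keap1 in Cd163 (0.0452). On unscaled series matrix values the sign turned for the interaction in Cd5l (-0.23), Clec4f (-0.0397), Fabp7 (-0.18), Folr2 (-0.24) and Vsig4 (-0.0789), for genotype in males in Cd5l (0.36), Clec4f (0.19), Folr2 (0.43), Timd4 (0.43) and Vsig4 (0.28), for genotype over both sexes in Cd5l (0.24), Clec4f (0.17), Folr2 (0.304), Id3 (0.29) and Vsig4 (0.24), for sex in AKP::Keap1 in Fabp7 (-0.31) and for sex over both genotypes in Id3 (-0.0566). With the shift to the array median the sign turned for the interaction in Adgre1 (0.15), for genotype in females in Adgre1 (-0.0532), Cd5l (-0.11), Clec4f (-0.0937), Folr2 (-0.0583) and Vsig4 (-0.0437), for genotype in males in Adgre1 (-0.21) and for genotype over both sexes in Adgre1 (-0.13) and Timd4 (-0.11). For genotype over both sexes the sign turned without 1 mouse in Adgre1 (-0.0477 to 0.27), Id3 (-0.24 to 0.18), Timd4 (-0.0907 to 0.36), Cd5l (-0.300 to 0.16), Folr2 (-0.19 to 0.17), Clec4f (-0.34 to 0.0472) and Vsig4 (-0.23 to 0.0776). For genotype in males the sign turned without 1 mouse in Adgre1 (-0.14 to 0.42), Cd5l (-0.62 to 0.29), Timd4 (-0.55 to 0.36), Clec4f (-0.72 to 0.0518), Folr2 (-0.45 to 0.26), Id3 (-0.0322 to 0.81) and Vsig4 (-0.55 to 0.0625). For the interaction the sign turned without 1 mouse in Adgre1 (-0.38 to 0.26), Cd5l (-0.27 to 0.65), Clec4f (-0.00907 to 0.76) and Folr2 (-0.18 to 0.53). For sex in AKP the sign turned without 1 mouse in Marco (-0.18 to 2.40). For sex over both genotypes the sign turned without 1 mouse in Id3 (-0.102 to 0.32) and Fabp7 (-0.13 to 0.0222). For sex in AKP::Keap1 the sign turned without 1 mouse in Id3 (-0.73 to 0.11), Cd163 (-1.25 to 1.08) and Fabp7 (-0.0898 to 0.22). For genotype in females the sign turned without 1 mouse in Adgre1 (-0.24 to 0.403), Cd5l (-0.22 to 0.27), Marco (-0.17 to 1.24), Vsig4 (-0.00734 to 0.19), Clec4f (-0.0566 to 0.14) and Folr2 (-0.12 to 0.27). Except where a setting tests fewer genes or samples, the cause of these changes was not tested. Of the member differences under an alternative, 1075 kept their sign and their side of the threshold, 98 changed sign, 31 passed the threshold and 39 no longer did. Of 66 genes of the other lists called for genotype over both sexes, 25 were called under every alternative fitted.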
